A study of Homo sapiens with 6 samples.

Results

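MYO1D, TMEM98 and ASIC2 lie on the long arm of chromosome 17, next to each other among the genes analysed here, and were chosen by their joint fall in read counts in PC3 cells that overexpress GCNT1. The other 7 genes listed, RHOT1, RHBDL3, C17orf75, ZNF207, CDK5R1, LIG3 and NLE1, are flanks taken for their position. Of the 10 listed genes, 9 were among the 12703 genes analysed, and RHBDL3 was not analysed here. Both the label of the locus and the order of the genes matched RefSeq positions on GRCh38.p14, from RHOT1 to NLE1 over 3.00 Mb.

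The cells were PC3, a human cell line of prostate cancer origin. The control group was 3 PC3 lines carrying negative-control lentivirus (Lenti-ORF control) and the GCNT1 overexpression group was 3 PC3 lines carrying a GCNT1 lentivirus, all made by stable transduction, and whether any line grew from 1 clone was not given in the sources used here. Each line gave 1 stranded mRNA library, and the comparison asks which transcripts change when this O-glycan branching enzyme is raised. Libraries held between 11392213 and 13825704 reads on genes. The targeted gene, GCNT1, was read 9, 13 and 8 times in control libraries 1 to 3 and 13, 16 and 35 times in overexpressing libraries 1 to 3. The epithelial keratins KRT8 and KRT18 stood at 222 and 253 CPM (read counts scaled to library size with edgeR's TMM factors) in controls and at 202 and 222 CPM with overexpression. Of the other epithelial markers, EPCAM was at 5.54 and 5.91 CPM in controls and with overexpression, and CDH1, which encodes E-cadherin, at 3.59 and 1.10 CPM, from 56, 43 and 34 reads to 15, 14 and 14. The luminal prostate gene TMPRSS2 stood at 4.20 CPM in controls and at 1.75 CPM with overexpression. The endothelial marker PECAM1 was at 1.77 and 4.43 CPM and the fibroblast collagen COL1A1 at 14.6 and 8.55 CPM in controls and with overexpression, and their part in the results was not tested. In bulk RNA, fewer cells with a transcript and less transcript per cell cannot be told apart.

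MYO1D is a class I myosin, a single-headed actin motor whose tail binds membranes, known for its part in left-right asymmetry. TMEM98 is a small membrane protein of the endoplasmic reticulum that binds the transcription factor MYRF and blocks its self-cleavage. ASIC2 is a subunit of proton-gated sodium channels and is best known from neurons.

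Sequences around the annotated gene starts are shown for the lost genes that the RefSeq promoter table holds, for CDK5R1, the nearest flank that kept its reads, and for SLFN11, a further neighbour that fell. Each window runs from 250 bases before to 50 bases after the start on the gene's own strand, 5′ to 3′ on GRCh38.p14, and the table matched 7 of the 10 listed genes. RHOT1, RHBDL3 and TMEM98 had no entry. The windows are chr17:32877075-32877374 (minus strand) for MYO1D, chr17:33293246-33293545 (minus strand) for ASIC2, chr17:32486743-32487042 (plus strand) for CDK5R1 and chr17:35373572-35373871 (minus strand) for SLFN11. The ASIC2 window belongs to a start inside the gene's span and not to the start at its far end. Capitals mark matches on either strand to the GC box GGGCGG and the CCAAT box CCAAT.
MYO1D: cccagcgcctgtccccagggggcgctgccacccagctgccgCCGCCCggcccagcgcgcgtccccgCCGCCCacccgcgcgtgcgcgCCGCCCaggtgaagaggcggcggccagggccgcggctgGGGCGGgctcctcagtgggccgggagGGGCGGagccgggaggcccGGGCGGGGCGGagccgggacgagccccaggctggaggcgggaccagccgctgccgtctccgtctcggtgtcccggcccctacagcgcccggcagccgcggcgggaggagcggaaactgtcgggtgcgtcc
ASIC2: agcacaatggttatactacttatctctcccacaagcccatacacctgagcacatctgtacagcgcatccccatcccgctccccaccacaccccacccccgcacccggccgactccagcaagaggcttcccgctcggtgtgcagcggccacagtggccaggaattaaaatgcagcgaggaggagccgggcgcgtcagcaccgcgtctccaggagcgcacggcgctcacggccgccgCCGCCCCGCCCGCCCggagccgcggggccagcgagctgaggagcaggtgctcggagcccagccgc
CDK5R1: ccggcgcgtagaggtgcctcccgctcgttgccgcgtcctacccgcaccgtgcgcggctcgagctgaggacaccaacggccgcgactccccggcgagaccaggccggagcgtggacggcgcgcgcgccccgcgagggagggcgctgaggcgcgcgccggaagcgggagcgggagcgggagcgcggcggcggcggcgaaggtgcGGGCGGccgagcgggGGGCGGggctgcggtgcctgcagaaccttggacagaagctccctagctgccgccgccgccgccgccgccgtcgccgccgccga
SLFN11: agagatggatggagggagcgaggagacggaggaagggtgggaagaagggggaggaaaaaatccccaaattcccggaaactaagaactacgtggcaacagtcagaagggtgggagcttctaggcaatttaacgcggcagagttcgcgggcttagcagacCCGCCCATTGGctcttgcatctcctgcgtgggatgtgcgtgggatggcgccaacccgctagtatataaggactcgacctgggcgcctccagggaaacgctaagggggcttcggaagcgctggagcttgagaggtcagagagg

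The MYO1D window was 82.0% G and C with 43 CpG pairs and 7 GC boxes, of which the last 2 overlap. The ASIC2 window was 68.7% G and C with 29 CpG pairs and 3 GC boxes that overlap one another, and the CDK5R1 window was 80.0% G and C with 57 CpG pairs and 2 GC boxes. SLFN11 was lower, at 58% with 18 CpG pairs, and held 1 GC box and 1 CCAAT box side by side. Over the 34796 windows of the same length in the table the median was 58.7% G and C with 14 CpG pairs. Of these windows 44.9% held a GC box, 34.6% a CCAAT box and 11.6% the exact TATA box letters TATAAA. None of the 4 windows shown held TATAAA. Only exact letters were searched for, and the SLFN11 window holds the near match tatataag. The windows of MYO1D and ASIC2, which were lost, and of CDK5R1, which was not, were all above these medians in G and C and in CpG pairs. A motif match is a description of the letters and not a bound site.

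MYO1D (Entrez identifier 4642, chromosome 17 from 32492522 to 32877124, minus strand) was the most abundant gene of the locus. It had 4708, 4462 and 4203 reads in the control libraries and 28, 37 and 27 reads in the overexpressing libraries. Every overexpressing library was far below every control library, but none was empty. Its level went from 363 ± 10.01 CPM to 2.34 ± 0.396 CPM (SD, n = 3 each), a 155-fold difference that left 0.646% of the control level, and edgeR's log2 fold change, overexpression over control and called log2 ratio from here on, was -7.27 (SE 0.09). MYO1D ranked 425th of all 12703 genes by control level. Among these 425 genes the next largest fall was that of SULF2, a heparan sulfate sulfatase, at -3.36.

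TMEM98 (Entrez identifier 26022, from 32928153 to 32944315, plus strand) had 881, 888 and 880 reads in the control libraries and none in any overexpressing library. The control level was 71.9 ± 2.28 CPM (SD, n = 3). A count of 0 allows up to 3 reads in a library, which sets TMEM98 at least 313-fold lower with overexpression. In all, 34 genes had 0 reads in every overexpressing library (0.268% of genes), and TMEM98 had the highest control level of them.

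ASIC2 (Entrez identifier 40, from 33013087 to 34156768, minus strand) was scarce in controls, with 17, 27 and 20 reads, or 1.74 ± 0.411 CPM (SD, n = 3). It too had 0 reads in all 3 overexpressing libraries, and ranked 25th by control level among the 34 such genes. With the same floor ASIC2 was at least 7.55-fold lower with overexpression. The loss of ASIC2 therefore rests on 64 control reads in all, against 2649 for TMEM98 and 13373 for MYO1D. These 3 genes were selected on this same contrast, so their values are a description and no test is given for them.

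**Figure D1:**
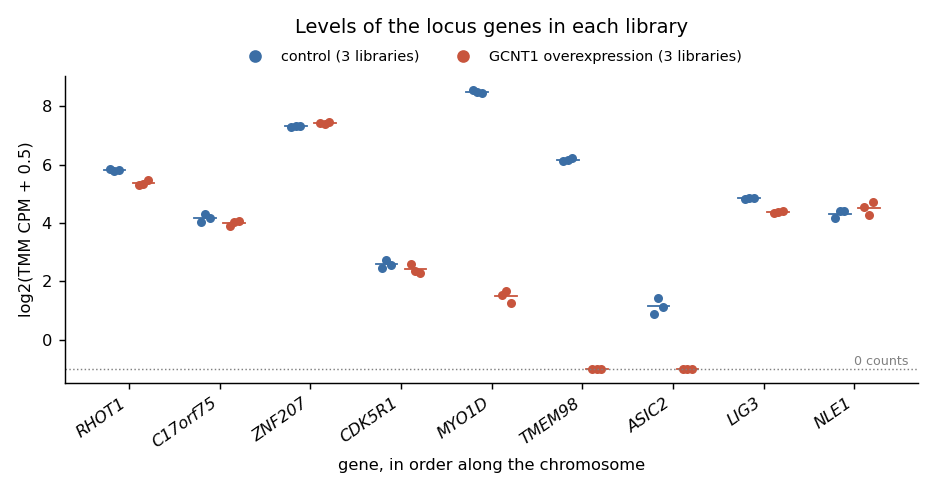
Levels of the 9 analysed locus genes as log2(TMM CPM + 0.5) on the y axis, in chromosome order on the x axis, with 1 point per library and a short line at each group mean (blue, 3 control libraries, and red, 3 GCNT1 overexpressing libraries). MYO1D falls from 363 to 2.34 CPM, TMEM98 and ASIC2 fall to the dotted line of 0 counts, and the 6 flanks have log2 ratios from -0.47 to 0.20, with RHOT1 at 73.6% and LIG3 at 72.0% of the control level.

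The 3 genes span 1.66 Mb, in which RefSeq has 5 protein-coding genes, the other 2 of them not analysed here. MYO1D ends 51.0 kb before TMEM98, and TMEM98 ends 68.8 kb before ASIC2. No other gene analysed here lay between them. On the MYO1D side, CDK5R1 ends 1268 bases from the nearest end of MYO1D, and on the ASIC2 side the next analysed gene, ZNF830, starts 805 kb away. GENCODE 44 draws 10 other annotated genes over the span of MYO1D, 6 of them on its own strand, and 22 over that of ASIC2, 12 on its own strand, but none over TMEM98. Whether reads were counted by strand was not given in the sources used here, so reads of MYO1D or ASIC2 and of an overlapping gene cannot be fully told apart.

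None of the 6 analysed flanks was called, where a call needs a Benjamini-Hochberg adjusted p under 0.05 from edgeR over all genes and an absolute log2 ratio over 0.58, against 19.3% of all genes (8.28% higher and 11.1% lower). Their log2 ratios ran from -0.47 to 0.20 with a median of -0.18, beside a median of 0.00 over all genes. Without the fold threshold, 3 of the 6 had an adjusted p under 0.05, as did 57.6% of all genes, and these same 3 had groups that did not overlap, as did 62.5% of all genes.

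On the MYO1D side, CDK5R1, which encodes the p35 activator of the kinase CDK5, had 62, 77 and 64 reads in controls and 64, 64 and 61 with overexpression. The groups overlapped, at 5.51 ± 0.634 against 4.84 ± 0.623 CPM (SD, n = 3 each), and the 95% interval of the log2 ratio ran from -0.52 to 0.13 (adjusted p = 0.284). The log2 ratio of -0.20 for CDK5R1 was -0.10 without control replicate 2 and -0.12 without GCNT1 overexpression replicate 3. PSMD11, a proteasome subunit gene just beyond CDK5R1, went from 144 ± 10.6 to 170 ± 5.14 CPM (log2 ratio 0.24, adjusted p = 0.00303, n = 3 each). The interval of CDK5R1, 1268 bases from MYO1D, did not reach the fold threshold on either side.

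ZNF207, also called BuGZ, encodes a kinetochore protein that binds the checkpoint protein BUB3. It had 1978, 1981 and 1890 reads in controls and 2006, 2334 and 2475 with overexpression, or 159 ± 1.39 and 173 ± 2.78 CPM (SD, n = 3 each), with every overexpressing library above every control library in CPM. Its log2 ratio was 0.12 (SE 0.05, adjusted p = 0.0331). Leaving out control replicate 1, 2 or 3 or GCNT1 overexpression replicate 3 put the adjusted p of ZNF207 above 0.05, with a range of 0.0407 to 0.123 over the 6 libraries left out in turn. C17orf75, a subunit of the WDR11 trafficking complex, had 199, 241 and 207 reads in controls and 168, 220 and 229 with overexpression, with overlapping CPM values and a log2 ratio of -0.17 (95% interval -0.38 to 0.04, adjusted p = 0.152). Without control replicate 2 the value for C17orf75 was -0.09. GENCODE 44 lets its 3′ end overlap that of RHBDL3.

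RHOT1, which encodes the mitochondrial GTPase Miro1 that ties mitochondria to motor proteins, had 715, 685 and 659 reads in controls and 453, 552 and 621 with overexpression. It fell from 55.9 ± 0.905 to 41.1 ± 2.57 CPM (SD, n = 3 each), to 73.6% of the control level. RHOT1 had a log2 ratio of -0.44 (SE 0.06, adjusted p = 5.99e-05).

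On the far side of ASIC2, LIG3, the DNA ligase of single-strand break repair and of mitochondria, had 351, 354 and 339 reads in controls and 231, 281 and 293 with overexpression. It fell from 28.3 ± 0.401 to 20.4 ± 0.407 CPM (SD, n = 3 each), to 72.0% of the control level, with a log2 ratio of -0.47 (SE 0.07, adjusted p = 8.04e-05). LIG3 overlaps RFFL and CCT6B in GENCODE 44, and RFFL had a log2 ratio of -0.17 (adjusted p = 0.258). NLE1, a factor in assembly of the large ribosomal subunit, had 219, 257 and 246 reads in controls and 265, 262 and 362 with overexpression. Its groups overlapped in CPM, and its log2 ratio of 0.20 had a 95% interval from -0.04 to 0.44 (adjusted p = 0.138). The log2 ratio of NLE1 depended on single libraries and ran from 0.09 without GCNT1 overexpression replicate 3 (adjusted p = 0.533) to 0.32 without GCNT1 overexpression replicate 2 (adjusted p = 0.0191). Without control replicate 1 it was 0.13 (adjusted p = 0.383).

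Per kilobase of the canonical GENCODE 44 transcript, MYO1D stood first in controls at 65.8 ± 1.82 RPKM (SD, n = 3). RHOT1 at 17.6 ± 0.286 and TMEM98 at 17.1 ± 0.540 RPKM followed, with means further apart than either SD. ZNF207 came next at 11.6 ± 0.101 RPKM. C17orf75 at 3.86 ± 0.390, NLE1 at 3.78 ± 0.370 and LIG3 at 3.38 ± 0.0479 RPKM were close, the first 2 within their spread. CDK5R1 with 1.40 ± 0.161 and ASIC2 with 0.463 ± 0.110 RPKM were the lowest. With overexpression RHOT1 led at 13.0 ± 0.810 RPKM, with ZNF207 at 12.6 ± 0.202 within its spread, and MYO1D was at 0.425 ± 0.0718 RPKM. The order depends on the canonical length, which is 13740 bases for ZNF207 and 3165 bases for RHOT1. Which transcripts the cells used was not tested. The lowest CV between control libraries was that of ZNF207 at 0.875% and the highest that of ASIC2 at 23.6%.

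The wider neighbourhood was taken as every analysed gene from RHOT1 to NLE1 with 10 more beyond each end, which added 24 genes. Of these, 3 were called (12.5%, against 19.3% of all genes), 2 higher and 1 lower, and the other 21 had log2 ratios between -0.60 and 0.48. The 4 that lie between RHOT1 and NLE1, PSMD11, ZNF830, RFFL and RAD51D, were not called. ZNF830, the first analysed gene past ASIC2, had 159, 173 and 156 reads in controls and 138, 188 and 176 with overexpression, and the 95% interval of its log2 ratio ran from -0.26 to 0.15.

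The called neighbours lay past NLE1. SLFN11, which encodes a nuclear protein that blocks stressed replication forks and is known as a marker of response to DNA-damaging drugs, had 165, 187 and 157 reads in controls and 5, 1 and 5 with overexpression. Its level fell from 13.8 ± 1.06 to 0.286 ± 0.189 CPM (SD, n = 3 per group), with a log2 ratio of -5.58 (SE 0.25, adjusted p = 8.85e-10). It lies on chromosome 17 from 35350305 to 35373621, 1.19 Mb past the end of ASIC2. SLFN5, its neighbour of the same Schlafen family 76.6 kb away, went the other way, from 511, 499 and 453 reads to 837, 1280 and 1227, or from 39.7 ± 1.20 to 84.2 ± 10.7 CPM (log2 ratio 1.09, SE 0.08, adjusted p = 2.27e-07, n = 3 each). ARHGAP23 was scarce, with 8, 6 and 9 reads in controls and 15, 29 and 23 with overexpression (log2 ratio 1.43, SE 0.31, adjusted p = 0.00148). 

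**Figure D2:**
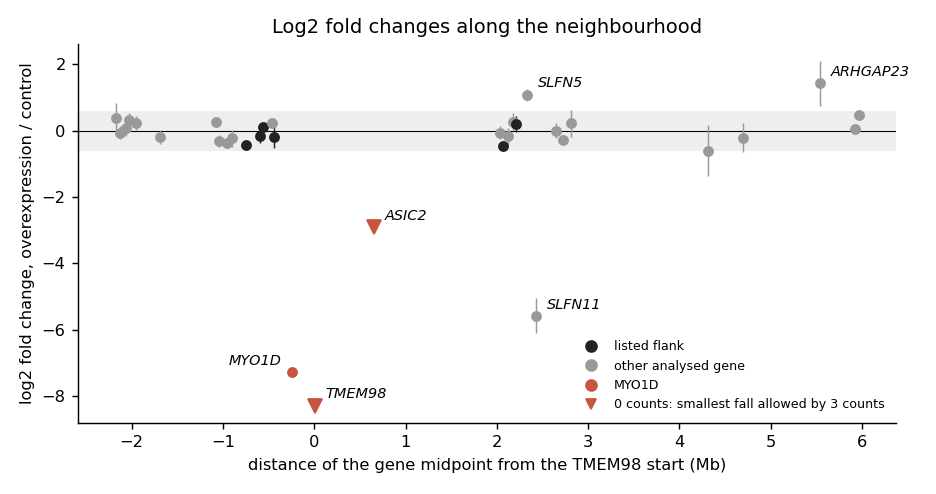
Log2 fold change (overexpression over control, y axis) of the 33 analysed genes of the neighbourhood against the distance of each gene's midpoint from the TMEM98 start in Mb (x axis), with bars for 95% intervals (none for the 3 lost genes) and grey shading for absolute values up to 0.58. Triangles mark TMEM98 and ASIC2, which had 0 counts with overexpression, at the smallest fall that 3 counts allow, and MYO1D, TMEM98, ASIC2 and SLFN11 are the points below -1.

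MYO1D has close relatives, and 4 of the 7 other class I myosin genes on the list were analysed and 1 was called, lower, beside 11.1% of all genes called lower. MYO1C had a log2 ratio of -0.03 (95% interval -0.13 to 0.07, adjusted p = 0.640) and was not called. The called gene was MYO1E, a class I myosin with a long tail, which went from 1512, 1428 and 1354 reads to 753, 1016 and 1025 (log2 ratio -0.72, adjusted p = 4.08e-07). MYO1F had 10 to 16 reads in each library and a log2 ratio of 0.17 (95% interval -0.49 to 0.82, adjusted p = 0.679). In RPKM, MYO1D made up 54.2 ± 0.774% of the sum of MYO1D, MYO1C, MYO1E and MYO1F in controls and 0.850 ± 0.154% with overexpression (SD, n = 3 each). That sum went from 122 ± 1.63 to 50.1 ± 0.741 RPKM, and the share of MYO1C in it was 34.6 ± 0.893% and then 82.3 ± 1.27% at levels of 42.0 ± 0.551 and 41.3 ± 1.19 RPKM.

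**Figure D3:**
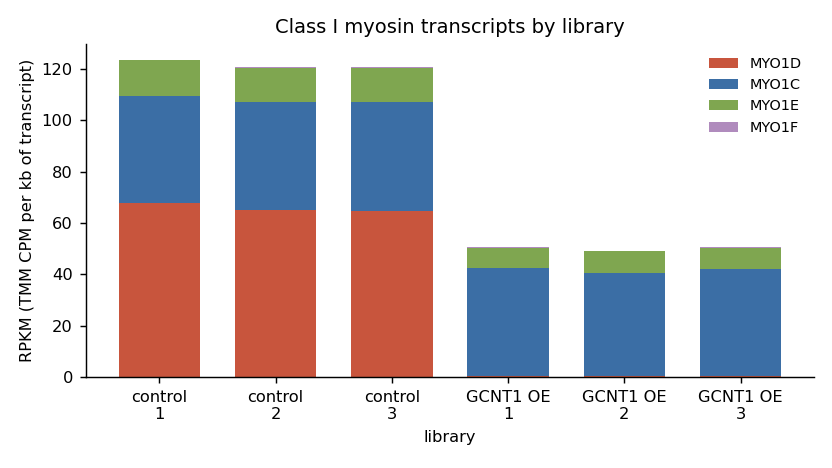
Transcripts of 4 class I myosins, MYO1D, MYO1C, MYO1E and MYO1F, as stacked bars of RPKM (TMM CPM per kb of canonical transcript, y axis) in each of the 6 libraries (x axis), coloured by gene. The MYO1D segment goes from 65.8 RPKM on average in controls to 0.425 RPKM and the summed level from 122 to 50.1 RPKM. The MYO1C segment is 42.0 and 41.3 RPKM on average.

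Of the 16 other unconventional myosins listed, 9 were analysed and 6 called, 4 lower and 2 higher, where 19.3% of all genes were called, 11.1% lower and 8.28% higher. MYO10, a motor of filopodia, fell from 257 to 98.7 CPM (log2 ratio -1.38, adjusted p = 1.72e-10). The vesicle motors MYO5A, MYO5C and MYO6 were also called lower, at log2 ratios of -0.91, -0.70 and -0.68, and MYO7B and MYO5B higher, at 1.21 and 0.65. The median over these 9 genes was -0.16.

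Of the 13 sodium channel genes and partners listed with ASIC2, 10 were analysed and 2 called, both lower, beside 19.3% of all genes called and 11.1% called lower. ASIC1, another subunit of the same channel family, had 267, 259 and 245 reads in controls and 265, 290 and 295 with overexpression, a log2 ratio of 0.05 (95% interval -0.12 to 0.21, adjusted p = 0.627). ASIC3 had a log2 ratio of 0.17 (95% interval -0.32 to 0.65, adjusted p = 0.560). The called genes were SCNN1B and SCNN1G, 2 subunits of the epithelial sodium channel ENaC, which had 40 to 63 and 39 to 49 reads in controls and 11 to 14 and 4 to 18 with overexpression. Their log2 ratios were -2.10 (SE 0.25, adjusted p = 9.99e-06) and -1.91 (SE 0.29, adjusted p = 0.000106), with a median over the 10 genes of -0.01. The other 2 ENaC subunits analysed were not called, SCNN1A at 0.67 (95% interval 0.04 to 1.31, adjusted p = 0.0648) and SCNN1D at -0.23 (95% interval -0.65 to 0.18, adjusted p = 0.321).

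Among the partners of TMEM98, 6 of 7 were analysed and none was called, beside 19.3% of all genes. MYRF had 229, 285 and 250 reads in controls and 225, 246 and 244 with overexpression, a log2 ratio of -0.19 (95% interval -0.40 to 0.02, adjusted p = 0.107). The other 5, FRAT1, FRAT2, NEDD4, NDFIP1 and NDFIP2, had log2 ratios between -0.31 and 0.22, and the median of the 6 was -0.07.

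Partners of the flanks come next. Of all genes, 19.3% were called and 11.1% called lower. None of the 7 genes of the CDK5 module was called, and CDK5 itself had a log2 ratio of -0.01 (95% interval -0.16 to 0.14, adjusted p = 0.921). None of 7 rhomboid family genes and none of 7 large-subunit assembly genes was called, with medians of 0.04 and -0.07. Among 9 genes of mitochondrial transport 2 were called lower. One was KIF5C, a neuronal kinesin heavy chain, which went from 158, 155 and 138 reads to 8, 10 and 10 (log2 ratio -4.09, adjusted p = 4.01e-10), while RHOT2, the paralogue of RHOT1, was not called at -0.34 (adjusted p = 0.00355).

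Of 8 spindle checkpoint genes 4 were called lower, BUB1, BUB1B, TTK and KNL1, at log2 ratios from -0.80 to -0.67, and BUB3, the partner of ZNF207, went from 245 to 173 CPM (log2 ratio -0.50, adjusted p = 9.24e-07) without passing the fold threshold. WDR11, which forms a complex with C17orf75, was called lower at -0.76 (adjusted p = 6.56e-07), and its other 2 listed partners were not called. Of 10 ligase and single-strand break repair genes LIG4, the ligase of end joining, was called higher at 0.70 (adjusted p = 0.000143), and XRCC1, the partner of LIG3, was not called at -0.44 (adjusted p = 0.000156). Over all 80 analysed genes of the lists 17 were called, 3 higher and 14 lower, which is 21.3% against 19.3% of all genes, and the median log2 ratio was -0.07. With library size alone as the scaling 20 were called, 6 higher and 14 lower.

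The genes nearest to each lost gene were found by the Euclidean distance of log2(CPM + 0.5) over the 6 libraries, a description that the difference between the 2 groups dominates. Nearest to MYO1D were SPTLC3, RBP4 and SCUBE3, at distances of 3.22, 3.58 and 3.78. Nearest to TMEM98 were GSPT2, ZFPM2 and DPYSL3, at 1.43, 1.61 and 1.63, and nearest to ASIC2 were CYB5R2, ZNF334 and GPR162, at 0.320, 0.347 and 0.359. None of these 9 genes lies on chromosome 17. CYB5R2, a reductase gene, had 15, 21 and 21 reads in controls and 0 in all overexpressing libraries.

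**Figure D4:**
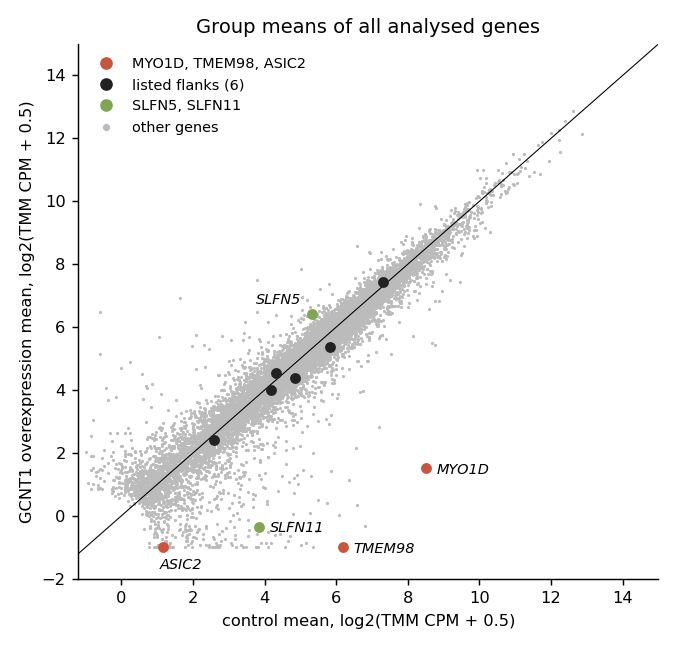
Group means of all 12703 genes as log2(TMM CPM + 0.5), controls on the x axis and GCNT1 overexpression on the y axis, with the line of equal level. MYO1D (363 CPM in controls, 2.34 CPM with overexpression) lies far below the line, TMEM98 and ASIC2 sit at 0 counts, and the 6 flanks have log2 ratios from -0.47 to 0.20.

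The same kind of run was looked for on the other chromosomes. With the 12643 analysed genes of chromosomes 1 to 22 and X put in order, 4 runs held 3 or more consecutive genes with log2 ratios below -2, out of 285 genes below that value. They were IL1R1, IL1RL1, IL18R1 and SLC9A2 on chromosome 2, SYT9, PPFIBP2 and CYB5R2 on chromosome 11, MYO1D, TMEM98 and ASIC2 on chromosome 17, and PWWP3B, RADX and RNF128 on chromosome X. The chromosome 2 run spans 0.641 Mb and holds 3 interleukin receptor genes of 1 family, with SLC9A2, a sodium-proton exchanger, at 129, 154 and 109 reads in controls and 0 in each overexpressing library. The other 2 runs span 0.435 Mb on chromosome 11 and 0.629 Mb on chromosome X. The chromosome 17 run, at 1.66 Mb, was the longest of the 4, and ASIC2 alone accounts for most of that length.

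**Figure D5:**
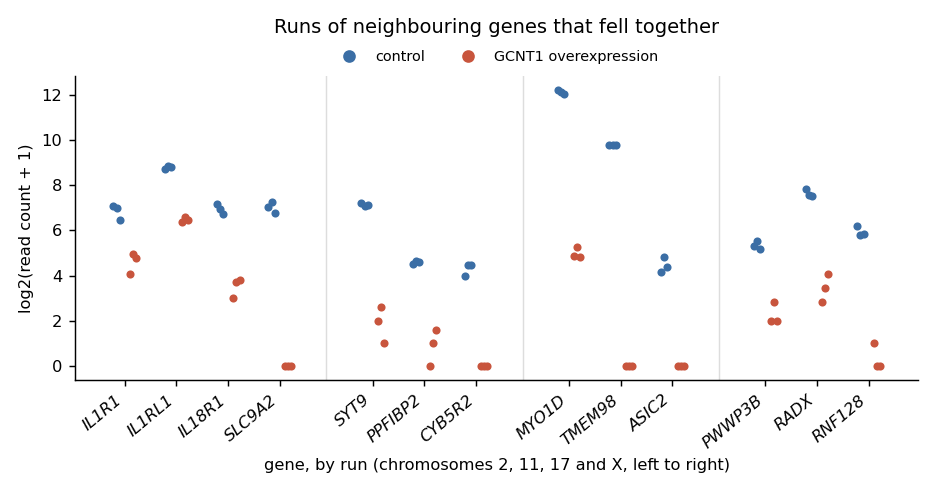
Read counts as log2(count + 1) (y axis) for the 13 genes of the 4 runs of neighbours with log2 ratios below -2 (x axis), with 1 point per library (blue, control, and red, GCNT1 overexpression). TMEM98, ASIC2, CYB5R2 and SLC9A2 reach 0 counts in all 3 overexpressing libraries, while IL1R1, IL1RL1 and MYO1D keep at least 16 reads in each.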

How the data were processed

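RNA from 3 control and 3 GCNT1 overexpressing PC3 lines was sequenced with single reads of 75 bp. The authors trimmed reads with Cutadapt, aligned them by HISAT2 to hg38 and assigned them to genes by featureCounts (Galaxy 22.01), and deposited raw counts per gene for each library; the annotation, strand setting and low-count filter were not given in the sources used here. Counts were fitted in R 4.3.3 with edgeR 4.0.16 (filterByExpr, which kept all 12703 genes, TMM, quasi-likelihood test, Benjamini-Hochberg adjustment over all genes) and called at the thresholds of the study's methods. The study used limma-voom, which is an alternative here with DESeq2 1.42.0.

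Entrez identifiers gave symbols and positions through RefSeq for 12661 genes. CPM was divided by canonical GENCODE 44 transcript length for RPKM. The floor was 3 counts, 0.213 to 0.259 CPM per library, and covers counting error only. The members and lists were chosen with earlier results of these data known. Named genes were the members, called neighbours, called list genes (at most 4 a list by p) with the nearest paralogues, the 3 genes nearest in pattern and the genes of the runs. SULF2, BUB3, RHOT2, XRCC1, CDK5, PSMD11, ZNF830, RFFL, RAD51D, FRAT1, FRAT2, NEDD4, NDFIP1, NDFIP2, SCNN1A, SCNN1D, MYO7B and MYO5B were named after their values were seen. Libraries of one group differed by more than sampling noise (chi-square per degree of freedom 1.65 to 5.65), and the labels call them biological replicates. Still, edgeR's common biological coefficient of variation within groups was only 0.0515. The p-values measure the spread among these lines. Whether the lines came from separate transductions was not given in the sources used here. An exact permutation test of 3 against 3 libraries cannot go below p = 0.1, so none was used. Some genes of the fixed lists and markers are not reported here. The tests were also run on simulated counts with far fewer changed genes than here, which gives no support to the calls.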

Additional observations from a re-analysis of the deposited data

How the results depend on the processing

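Under every alternative run, none of the 6 analysed flanks was called. MYO1D kept a log2 fold change between -7.39 and -7.14 over all alternatives. The smallest fall of TMEM98 was 300.4-fold with library size alone and ran from 301-fold to 334-fold with a library left out, and that of ASIC2 stayed within 6.61-fold and 8.35-fold. Among the 24 other neighbours 1 gene was called with at least 10 counts in every library, a filter that leaves out SLFN11, ARHGAP23, TMEM98 and ASIC2 by their own low counts, 2 with 5 genes beyond each end, 4 without control replicate 2, and 3 otherwise. The filter of 10 counts also leaves out KIF5C and SCNN1G, and 14 of the 76 list genes it keeps were called. Testing against the fold threshold itself (glmTreat) called 1392 genes in all, against 2457, and 11 of the list genes, against 17, without MYO5B, MYO5C, MYO6, TTK, KNL1 and LIG4. Runs of 3 neighbours below a log2 fold change of -1 numbered 17, and runs of 2 neighbours below -2 numbered 20. An offset of 1 kept 6 of the 9 genes nearest in pattern. A fit with a replicate block called 2423 genes, among them 3 neighbours and 17 list genes, but no flank; same-numbered libraries did not deviate together (correlations of -0.273, -0.00240 and -0.109), and the block changed no call reported here. The adjusted p of ZNF207 was 0.113 under the block and 0.0733 under DESeq2. Library size alone called 1283 genes higher and 1230 lower, against 1052 and 1405. At this depth ASIC2 had at most 27 reads in a control library, which limits its smallest fall.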
